A study of Mus musculus with 14 samples.

Results

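The genes described here encode Rab GTPases and the regulators of Rab, Rac, Cdc42, Ras and Rap GTPases. They were examined in a comparison of NKX2.2 binding between Klf4-knockdown and control alpha cells. A region belonged to the set if its nearest protein-coding gene had a symbol beginning with Rab, Arhgap, Arhgef, Dock, Rasgrp, Rasgrf, Rapgef or Tbc1d and a digit. Rab3a, Rab3b, Rab3c, Rab27a and Rab27b were left out. Of 6758 regions in the authors' deposited table, 70 met this rule. They lay nearest to 46 of the 176 genes whose symbols fit it, and all 70 carried a fold change and a p-value.

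Small GTPases are molecular switches, active when bound to GTP and inactive when bound to GDP. Guanine nucleotide exchange factors (GEFs) load them with GTP, and GTPase-activating proteins (GAPs) speed hydrolysis and switch them off. Rab proteins direct vesicle traffic and are switched off by the TBC-domain (Tbc1d) GAPs. RhoA, Rac and Cdc42 shape the actin cytoskeleton under Arhgef and Dock GEFs and Arhgap GAPs, and Rasgrp, Rasgrf and Rapgef proteins are GEFs of Ras and Rap. In endocrine cells of the pancreas these systems serve the traffic and release of hormone granules.

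The cells were alphaTC6, a mouse line of glucagon-producing alpha cells, of wild-type genotype per the labels in every group. They were reverse-transfected for 48 h with a Klf4 siRNA or a scrambled siRNA. Chromatin immunoprecipitation and sequencing (ChIP-seq) with an antibody against the homeodomain factor NKX2.2 gave 4 scramble and 3 knockdown samples, and 4 scramble and 3 knockdown input samples accompany them. The only table analysed holds the authors' csaw comparison of the ChIP samples and no value per sample. Depth, replicate spread and the identity of the alpha cells could therefore not be checked, and the level of Klf4 after knockdown was not analysed here. Each region carries a p-value combined over its windows, a false discovery rate (FDR) and a log2 fold change taken from 1 representative window. Its windows are also counted as up, down or neither, and the rule of that count was not checked. The count does not follow sign alone: the region nearest to Tbc1d30, listed as up at 0.68, had all 8 windows counted as neither. The table does not state which group is the numerator, so "up" and "down" repeat its sign and do not mean gain or loss on knockdown.

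Regions at start sites come first, because they can be read as sequence. At least 1 RefSeq promoter window was found for 33 of the 46 genes, each window running from 250 bases before to 50 bases after an annotated start (GRCm38.p6). In 9 genes a region overlapped such a window of its own gene: Rab5c, Rab8a, Rab35, Rab11fip2, Rab3gap2, Arhgap11a, Arhgap17, Arhgef1 and Tbc1d14. None of the 9 regions passed an FDR of 0.05, and their deposited log2 fold changes ran from -0.37 at Rab3gap2 to 0.51 at Tbc1d14. The starts at Tbc1d14 and Arhgef1 are internal to the gene bounds: these regions lie inside, 40.0 and 1.34 kb from the nearer gene end. The following lines show, for 5 of them, the bases before the start that lie inside the region, 5′ to 3′ on the gene's strand. They are shown so that the base composition of these 5 starts can be read, with CG dinucleotides in capitals. Not shown are the stretches of Arhgap17 (7 CG dinucleotides in 65 bases, 60.0% G or C) and Rab5c (5 in 60 bases, 63.3%). Arhgap11a, where the region covers 10 bases (1 CG dinucleotide, 70.0% G or C), and Tbc1d14 are not shown either. At Tbc1d14 the covered part runs from -37 to 49 around the start. It holds 4 CG dinucleotides in 87 bases and is 58.6% G or C, the lowest share of the 9. Rab8a is shown for a KLF-type match, CCACACCC, which is in capitals too.
Rab35: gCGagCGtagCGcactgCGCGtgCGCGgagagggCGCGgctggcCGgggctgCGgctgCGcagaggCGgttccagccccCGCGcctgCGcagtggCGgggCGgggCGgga
Rab8a: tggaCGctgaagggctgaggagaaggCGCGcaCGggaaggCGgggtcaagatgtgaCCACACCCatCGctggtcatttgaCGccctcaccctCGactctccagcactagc
Rab3gap2: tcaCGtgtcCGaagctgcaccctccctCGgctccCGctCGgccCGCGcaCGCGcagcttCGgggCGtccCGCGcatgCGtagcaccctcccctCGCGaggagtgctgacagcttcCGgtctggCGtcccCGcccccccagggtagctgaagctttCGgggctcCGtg
Rab11fip2: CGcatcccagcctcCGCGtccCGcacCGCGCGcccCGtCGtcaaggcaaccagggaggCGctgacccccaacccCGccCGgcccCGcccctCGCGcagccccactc
Arhgef1: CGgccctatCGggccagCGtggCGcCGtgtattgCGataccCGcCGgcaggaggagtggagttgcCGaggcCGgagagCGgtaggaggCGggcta

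The Rab35 stretch, chr5:115631801-115631910 on the plus strand, holds 19 CG dinucleotides in 110 bases and is 81.8% G or C. That of Rab8a, chr8:72161001-72161110 on the plus strand, holds 8 in 110 bases and is 62.7% G or C. Its 7.27 CG dinucleotides per 100 bases lie below the median of 7.71 for the parts of promoters under any listed region. The stretches of Rab3gap2 (chr1:185204001-185204167, plus strand), Rab11fip2 (chr19:59943655-59943760, minus strand) and Arhgef1 (chr7:24904251-24904345, plus strand) end at the base before the start and hold 21, 15 and 12. Over the 9 promoter windows the median share of G and C was 64.0%, against 60.3% in the 1346 windows under any listed region and 52.7% in all 32851 windows of the table. Member windows thus lay close to other promoters under a listed region in base composition, and both lay above promoters at large. In the parts that the regions cover, the 9 had higher medians than other promoters under a region. These were 70.0% G or C against 62.3%, and 10.8 CG dinucleotides per 100 bases against 7.71. The difference was not tested.

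The letters CACTT or AAGTG, the core of NK2-type homeodomain motifs, were searched on both strands. They occurred in 4 of the 9 windows (44.4%), in 46.7% of windows under any listed region and in 46.4% of all windows. In the part of the window that the region itself covers they occurred in 1 of the 9, against 308 of the 1346 promoters under any listed region. That 1 was Rab11fip2, where the match lies outside the stretch printed above. The longer CACTTA or TAAGTG occurred in 1 of the 9 windows, that of Arhgap17, against 6.39% of windows under any listed region and 9.20% of all windows. The Arhgap17 match is not within the part that the region covers. CCACACCC or GGGTGTGG, letters bound by KLF factors, occurred in 1 of the 9 windows, against 3.56% of all windows. That 1 was Rab8a, with the match at positions -143 to -136 from the start, inside the region. These matches describe letters only.

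One of the 70 regions, or 1.43% (95% Wilson interval 0.253 to 7.66%), reached an FDR of 0.05. It lies in Dock2, a GEF that activates Rac and is best known from leukocytes, and it was listed as down. Over all 6758 regions 1.36% were called at this FDR, and 0.592% were called with a negative value. The share called among members was thus near the background. Without adjustment, 10 members had p-values under 0.05 (14.3%, Wilson interval 7.95 to 24.3%), against 11.2% of all regions. Of these 10, 6 had positive values (8.57%, against 7.55% of all regions) and 4 negative ones (5.71%, against 3.68%). All p-values, FDR values and fold changes of regions are those of the authors' deposited table, and those without an FDR of 0.05 or lower are given as values, not as changes.

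**Figure D1:**
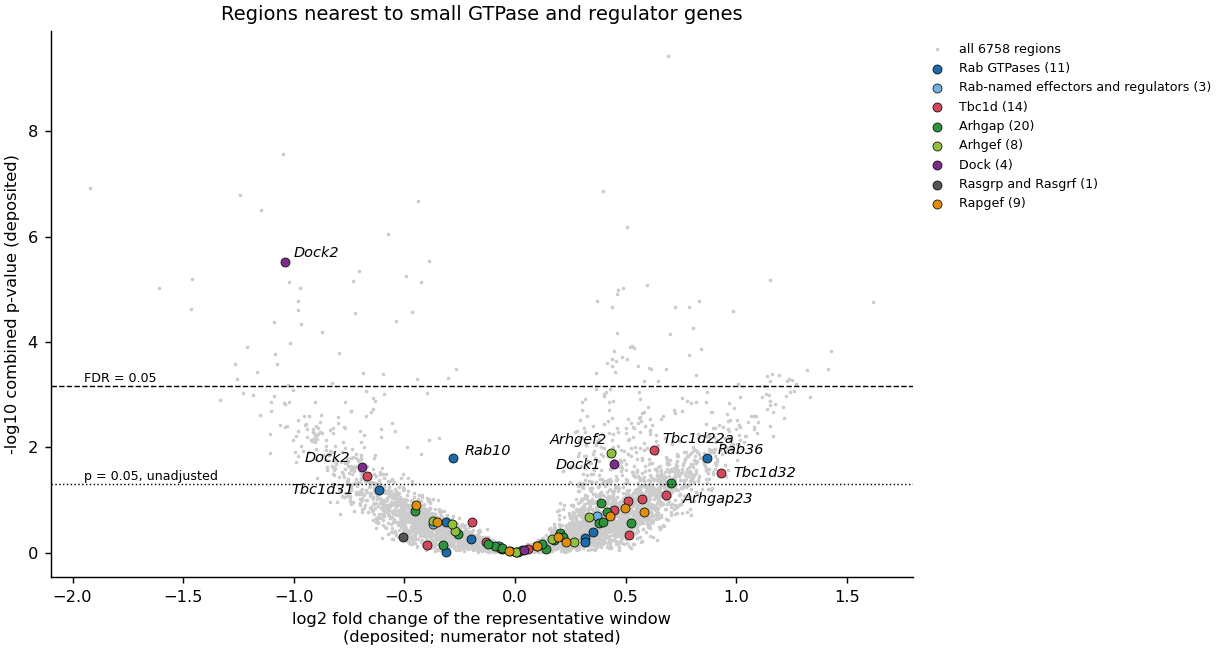
Each point is a region, placed by its deposited log2 fold change (x axis) and the -log10 of its combined p-value (y axis). Grey points are all 6758 regions and coloured points the 70 members by class; of the members, the region in Dock2 alone lies above the dashed line at an FDR of 0.05.

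The median log2 fold change of the 70 regions was 0.08, against 0.04 over all regions, and values ran from -1.04 to 0.93. Negative values were held by 29 of the 70 (41.4%, Wilson interval 30.6 to 53.1%), against 43.2% of all regions. Taken from each region's best window instead, the members' median was -0.01 and that of all regions 0.15. The direction column named 34 members up, 28 down and 8 mixed. By class, medians were 0.27 for 14 Tbc1d regions, 0.20 for 9 Rapgef regions, 0.13 for 20 Arhgap regions, 0.09 for 8 Arhgef regions, -0.06 for 11 Rab GTPase regions and -0.33 for 4 Dock regions. Each of these classes held values of both signs. The range within each of them, such as -0.67 to 0.93 in Tbc1d, was wider than the distance between any of these medians.

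**Figure D2:**
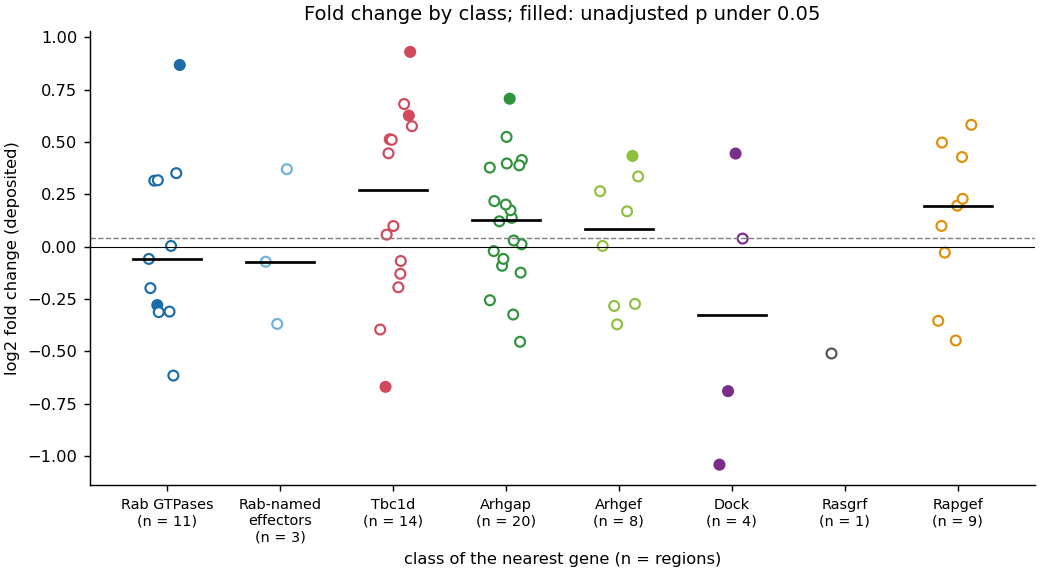
Points are the deposited log2 fold changes (y axis) of the 70 regions by class of their nearest gene (x axis), filled where the unadjusted p-value is under 0.05. Black bars are class medians for classes of 3 or more regions, and the dashed line is the median of all regions, 0.04; every class with more than 1 region has values on both sides of 0.

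Dock2 was the one gene with a called region. It spans 557 kb of chromosome 11, from 34226815 to 34783905, and 3 regions lie within it, all over 100 kb from either end. The region chr11:34681851-34682010 had a log2 fold change of -1.04 in the authors' deposited table, with a combined p-value of 3.09e-06 and FDR 0.0019. By p-value it ranked 11 among all 6758 regions, and all 4 of its windows were counted as down. A second region, chr11:34544851-34544960, lies 137 kb away and had a value of -0.69, with 3 of 3 windows down (p-value 0.0241, FDR 0.321). The third, chr11:34518751-34518860, was listed as mixed, with a value of 0.04 (p-value 0.897) and a best-window value of -0.10. The next region to either side outside Dock2 was far off, at 756 kb from the called one near Kcnip1 (0.38, FDR 0.861) and at 599 kb near Slit3 (0.37, FDR 0.833). Negative values were thus found at 2 of the 3 Dock2 regions, or at all 3 by best window, and the neighbours had positive ones.

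Dock1, the Rac GEF that works with ELMO proteins in cell engulfment and migration, had 1 region, chr7:135169251-135169460, at 4.29 kb from an end of the gene and inside it. Its deposited log2 fold change was 0.44, the opposite sign to the called Dock2 region (p-value 0.0204, FDR 0.295). No region was nearest to any of the other 9 Dock genes in the gene table, Dock3 to Dock11.

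**Figure D3:**
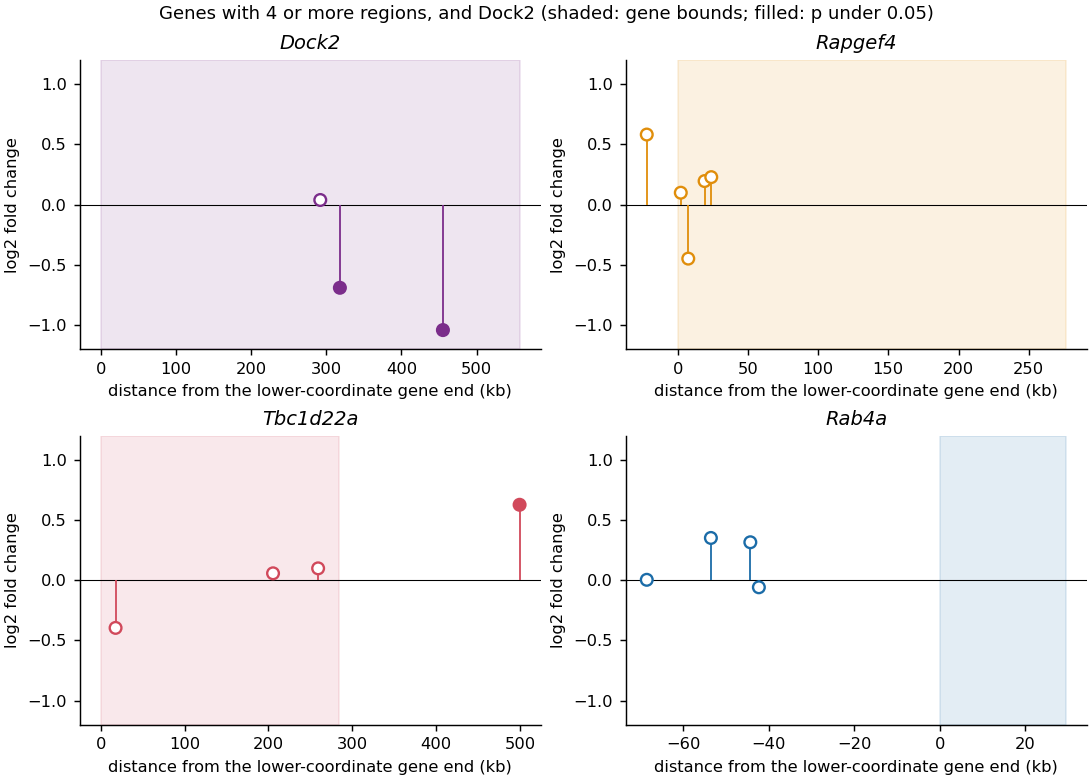
The 4 panels show Dock2, Rapgef4, Tbc1d22a and Rab4a: each point is a region, placed by its distance in kb from the gene end with the lower coordinate (x axis) and its deposited log2 fold change (y axis), with the gene's bounds shaded. Filled points have an unadjusted p-value under 0.05, as do 2 of the 3 regions in Dock2 and the region outside Tbc1d22a, while all 4 regions of Rab4a lie outside that gene.

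Regions nearest to Rab GTPase genes lay at the ends of these genes or outside them. Of 54 such genes in the gene table, 8 were nearest to a region (14.8%, Wilson interval 7.7 to 26.6%). None of their 11 regions lay inside a gene more than 1 kb from its ends, where 39.4% of all regions lay. Within 1 kb of an end lay 5, against 26.0% of all regions, and 6 lay outside, 2.64 to 137 kb away. Rab GTPase genes had a median length of 22.6 kb, the shortest of the classes, and the part of length in this placing was not tested. The 5 at gene ends belonged to Rab36, Rab6a, Rab35, Rab8a and Rab5c.

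At Rab36 the region chr10:75037001-75037160 had the highest value of its class, 0.87 (p-value 0.0160, FDR 0.262), with 3 of 4 windows up. Rab6a, a GTPase of Golgi traffic, held the lowest, -0.62 (p-value 0.0654, FDR 0.502). That region, chr7:100607651-100607760, also overlaps Mrpl48, a mitochondrial ribosomal protein gene, so the choice of gene there rests on the closer gene end. Values at Rab35, of endocytic recycling, Rab8a, of exocytic and ciliary traffic, and Rab5c, of early endosomes, were -0.31, -0.31 and 0.32, each with an FDR of 0.794 or higher. Among gene ends of the Rab class, values of both signs were therefore listed and none passed the FDR.

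Away from gene ends, Rab10, which acts in exocytosis, was the nearest gene to a region on chromosome 12 from 3109851 to 3110110, 137 kb away. Its deposited log2 fold change was -0.28 (p-value 0.0161, FDR 0.263), with all 6 windows down. It is 1 of 2 members in the first 3.5 Mb of a chromosome, and without them and the unplaced contigs 9 members had p-values under 0.05. Rab4a, of early endosome recycling, had 4 regions on chromosome 8 between 123737301 and 123763560, all 42.3 to 68.5 kb outside the gene, and 2 of them overlap lncRNA genes. Their values were 0.00, 0.35, 0.31 and -0.06, with FDR values of 0.900 or higher. The remaining region, at Rab40c, was a single window with a value of -0.20 (FDR 0.981).

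Of the 10 Rab-named effectors and regulators, 2 had regions. Rab3gap2, a subunit of the complex that acts as GAP of Rab3, had 1 region at its start with a value of -0.37 and 1 region 25.8 kb from that end with a value of 0.37. Their FDR values were 0.813 and 0.732. Rab11fip2, an effector of Rab11 in recycling endosomes, had 1 region across its start with a value of -0.07 (FDR 1.00). Neither gene thus carried a region that passed the FDR.

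Tbc1d genes, named for the TBC domain of Rab GAPs, had 14 regions at 9 of 30 genes, with 9 positive and 5 negative values. Whether each encodes an active GAP was not examined. The 3 at a p-value under 0.05 all lay outside their nearest gene. At Tbc1d22a the region chr15:86713901-86714110 had a value of 0.63 (p-value 0.0115, FDR 0.225), with 3 of 5 windows up. It lies 215 kb beyond the gene and overlaps an lncRNA gene, 4930543I03Rik, so its link to Tbc1d22a rests on distance alone. The other 3 regions of Tbc1d22a lie within it, at -0.40, 0.06 and 0.10, each with an FDR of 1.00.

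Tbc1d32, a protein of primary cilia, was nearest to the region with the highest value of all members, 0.93, on chromosome 10 from 55935701 to 55935860. That region lies 78.4 kb outside the gene and had 1 of 4 windows counted as up and 3 as neither (p-value 0.0309, FDR 0.360). Tbc1d31, a protein of the centrosome, was nearest to a region of the opposite sign, -0.67, at a distance of 4.83 kb (chr15:57906751-57906860; p-value 0.0353, FDR 0.382). At Tbc1d30 a region of 8 windows, 57.4 kb away, had a value of 0.68 (p-value 0.0806, FDR 0.538). The remaining values were 0.57 and -0.13 at Tbc1d16, 0.51 and -0.19 at Tbc1d14, 0.51 at Tbc1d4, 0.45 at Tbc1d19 and -0.07 at Tbc1d8, with FDR values of 0.580 or higher. Tbc1d4, which restrains Rab10 in glucose transporter traffic, had its single region 89.9 kb from the gene.

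Arhgap genes, the GAPs of RhoA, Rac and Cdc42, had the most regions, 20 at 13 of 34 genes, and 12 of them lay inside a gene over 1 kb from its ends. The only one with a p-value under 0.05 lies in Arhgap23, chr11:97434951-97435060, with a value of 0.71 (p-value 0.0479, FDR 0.436). A second region 15.2 kb from it in the same gene had a value of -0.12. The lowest value of the class was -0.45, in Arhgap18, which acts on RhoA (FDR 0.686). Arhgap26, also known as GRAF1 and active in endocytosis, had 3 regions within its 775 kb, at 0.39, 0.20 and 0.03, and was the 1 member gene with several regions whose values shared a sign, though by best window the middle one was -0.29. Arhgap21, a Cdc42 GAP, had values of -0.09 inside the gene and 0.52 at 68.6 kb outside it. Arhgap24, a Rac GAP that binds filamin, had -0.06 and 0.41 within it. Arhgap11a and Arhgap12 each had 1 region within 1 kb of the gene and 1 farther out, at -0.26 and 0.38, and at 0.01 and -0.02. The single regions of Arhgap8, Arhgap17, Arhgap19, Arhgap25, Arhgap28 and Arhgap40 lay between -0.32 and 0.40, with FDR values of 0.793 or higher.

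Arhgef genes, GEFs of RhoA and its relatives, had 8 regions at 8 of 25 genes, 1 region each. Arhgef2, a RhoA GEF held on microtubules and also called GEF-H1, had the highest value, 0.43, at chr3:88623001-88623260 inside the gene. It had 2 of 6 windows counted as up and 4 as neither (p-value 0.0130, FDR 0.236). The lowest, -0.37 (FDR 0.785), lay 0.433 kb outside Arhgef12, a RhoA GEF coupled to heterotrimeric G proteins. Arhgef1, of the same kind, had a value of 0.00 across the start whose sequence is shown above. In Arhgef10 a region of 7 windows, 310 bp wide, had a value of 0.26, and values at Arhgef5, Arhgef10l, Arhgef18 and Arhgef28 were 0.34, 0.17, -0.27 and -0.28.

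Among the GEFs of Ras and Rap, Rapgef4 had the most regions. It encodes EPAC2, through which cyclic AMP acts on Rap and on hormone release in islet cells. Its 5 regions, also the most of any member gene, lie within 46.1 kb of chromosome 2: 1 is 22.0 kb outside the gene and 4 are inside, 2.24 to 23.9 kb from the same end. In order along the chromosome their values were 0.58, 0.10, -0.45, 0.20 and 0.23, and the smallest p-value of the 5 was 0.127 (FDR 0.636). Regions nearest to Rapgef2, a Rap GEF, had values of 0.50 inside the gene, -0.35 at 0.756 kb from it and 0.43 at 995 kb from it. The link of the farthest to Rapgef2 rests on distance alone, and the inside and near ones each overlap an lncRNA gene. Rapgef1 had 1 single-window region at -0.03. Rasgrf2, a calcium-responsive Ras GEF, held the only region of the Rasgrp and Rasgrf class, with a value of -0.51 (p-value 0.516, FDR 0.967). No region was nearest to Rapgef3, Rapgef5, Rapgef6, Rasgrf1 or Rasgrp1 to Rasgrp4.

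Of the 14 member genes with 2 or more regions, 13 had values of both signs, against 709 of 1217 such genes in the whole table (58.3%). This difference was not tested, and most of the values are small and uncalled, such as -0.02 and 0.01 at Arhgap12. By best window the count was again 13, with Arhgap26 mixed and Dock2 of 1 sign. The widest span within a gene was 1.08, in Dock2, from -1.04 to 0.04, followed by 1.03 in Rapgef4 and 1.02 in Tbc1d22a. At least 2 regions were found at 30.4% of the 46 member genes and at 26.8% of all 4542 genes with a region, and 3 or more at 13.0% and 10.9%.

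Member genes had a median length of 53.2 kb, against 17.2 kb over all 21887 protein-coding genes, and 95.2 kb among members with a region. A region was nearest to 26.1% of member genes (46 of 176, Wilson interval 20.2 to 33.1%) and to 20.8% of all genes. Inside gene bounds there were 2.31 member regions per Mb of gene, against 3.59 over all genes. Within classes this density ran from 1.25 in Arhgef and 1.27 in Dock to 5.32 in Rab-named effectors and 5.64 in Rapgef, from 3 and 6 regions inside genes. A gene with no region may have lacked binding or fallen under the window filter, which is not given in the sources used here.

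**Figure D4:**
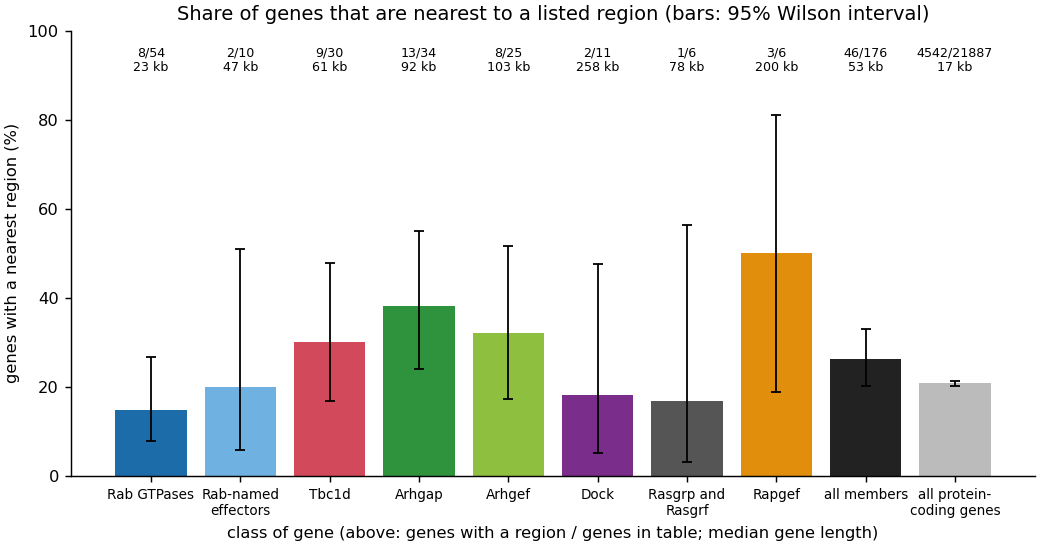
Bars give the percentage of genes in each class that are nearest to at least 1 listed region, with 95% Wilson intervals, and the numbers above give the genes with a region, the genes in the table and the median gene length. The share was lowest for Rab GTPases, at 8 of 54 genes (14.8%), and highest for Rapgef, at 3 of 6 genes, against 20.8% for all protein-coding genes.

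By place, of the 70 regions 40 lay inside their gene (57.1%, Wilson interval 45.5 to 68.1%), against 56.1% of the 6726 regions on assembled chromosomes. Within 1 kb of an end lay 13 (18.6%, 11.2 to 29.2%), against 26.0% of all, which lies within that interval. Of those 13, 7 belonged to Rab GTPases and Rab-named effectors, which hold 14 of the 70 regions. The 13 near gene ends had a median of -0.31, with 9 negative values, and the remaining 57 a median of 0.14. Over all regions the same medians were -0.05 and 0.10, and 1025 of the 1752 regions near gene ends had negative values. The lower median at gene ends was thus found in the whole table too. Median width, 110 bp, and median number of windows, 3, equalled those of all regions. No member was wider than 360 bp or lay on an unplaced contig.

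**Figure D5:**
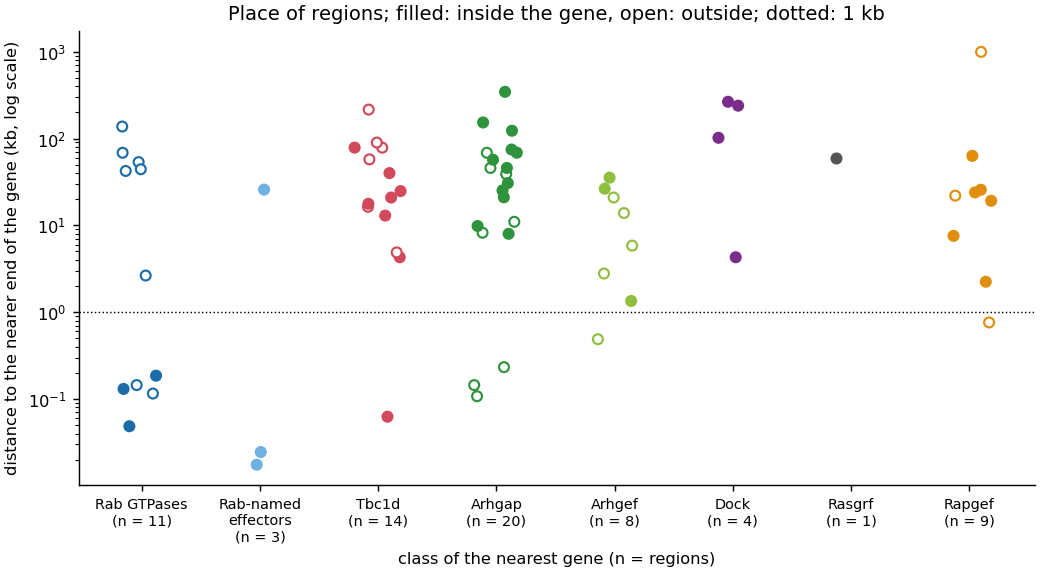
Points are the 70 regions by class (x axis) and by distance of the midpoint to the nearer end of the nearest gene in kb on a log scale (y axis), filled inside the gene and open outside. The dotted line marks 1 kb; 5 of the 11 Rab GTPase regions lie under it and all 4 Dock regions above it.

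Genes of the same systems outside the naming rule were taken from a list of 212 genes, of which 75 had 139 regions. Their median log2 fold change was 0.03, and 13 had p-values under 0.05 (9.35%, against the 11.2% above). Of these 13, 11 were positive, as were 510 of the 759 such regions over all. The list holds 1 region at an FDR of 0.05 (0.719%, against 1.36% of all regions). It lies in Bcr, which encodes a protein with both a GEF and a Rac GAP domain. That region, chr10:75121201-75121310, had a value of 1.01 and an FDR of 0.0474, or 0.0502 by its best window. Among 32 GEFs of Rac, Cdc42 and RhoA outside the naming rule, 13 had 26 regions, and all 5 with a p-value under 0.05 were positive: besides Bcr, these were 0.97 and 0.29 in Tiam1, 0.88 in Trio and 0.65 in Abr, with FDR values of 0.166 to 0.438. Others were at Rnd3 (0.79, 280 kb away), Srgap3 (0.73), Rabgap1l (0.62), Dennd3 (0.44), Rgl1 (0.39), Rhof (-0.67) and Arl4d (-0.67), with FDR values from 0.209 to 0.433.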

How the data were processed

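NKX2.2 ChIP-seq of scramble and Klf4-knockdown alphaTC6 cells was compared by the authors with csaw, per the series' design text. The deposited table gives, per the file headers, a log2 fold change, a combined and a best-window p-value and their FDR for each region, with no value per sample. The submitters' processing notes name FastQC, Bowtie2, MACS2 and mm10; normalization, window filter and use of inputs are not given in the sources used here. Each region was given the closest of the 21887 protein-coding genes in a RefSeq table of GRCm38.p6 (distance 0 if overlapping, ties to the closer gene end), and near a gene end means a midpoint within 1 kb. The FDR equals a Benjamini-Hochberg adjustment over all 6758 regions. Motif letters were searched in promoter windows, not in whole regions, because no genome was used here. Planned count tests were not run, because no counts per library are in the table, and depth is unknown. Intervals are 95% Wilson intervals over regions or genes, which are not replicates.

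Members and lists were chosen with earlier results of these data known. Named regions are those at an FDR of 0.05 or a p-value under 0.05, the extremes of each class and genes with 4 or more regions; further members were named after their values were seen. One related region is not reported here. Functions were tested on simulated data. Tables were computed in Python 3.11.15 (pandas 2.3.3, numpy 2.4.6), intervals with scipy 1.17.1 and plots with matplotlib 3.10.9.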

Additional observations from a re-analysis of the deposited data

How the results depend on the processing

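No paired analysis was possible because values per replicate are not in the table; leaving out replicates, other normalizations and count filters were not run for the same reason, nor were motif searches in the regions themselves or widened to 300 bases. The 1 called region, in Dock2, was the only call at an FDR of 0.01 or 0.1, with best windows, and under each of the filters on fold change, distance, symbol, window number, width and chromosome start, the last chosen after the data were seen. The count at a p-value under 0.05, 10, ran from 7 (within 10 kb of the gene) to 10. The median of 0.08 became -0.0091 with best windows, a reversal within its 95% order-statistic interval of -0.06 to 0.22, and ran from 0.01 to 0.17 otherwise. The share near gene ends, 18.6% at 1 kb, was 24.3% at 3 kb and 35.7% at 10 kb (33.6% and 47.0% of all regions), and the share inside genes, 57.1%, was 68.6% with all genes of the gene table (65.4% of all regions). With best windows, 3 of the 31 named regions changed sign, at Tbc1d22a (-0.10), Arhgap26 (-0.29) and Rapgef4 (-0.43), none near an FDR of 0.05. The causes were not tested. Since depth is unknown, a region without a call may still differ.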

Other observations

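Arf GTPases, which recruit coats to membranes, and their regulators were a further group of the related list. Of 54 genes, 18 had 30 regions, with a median deposited log2 fold change of 0.01 and 14 negative values. In the authors' deposited table a p-value under 0.05 was held by 1 of the 30 (3.33%, against 11.2% of all regions). None reached an FDR of 0.05, against 1.36% of all regions. The 1 region lies in Arl4d, an Arf-like GTPase, with a value of -0.67 (p-value 0.0226, FDR 0.311), and the other 2 regions of Arl4d had values of -0.37 and -0.54. Arf6, which acts in endocytosis and granule release, had 5 regions at values of -0.30, 0.25, 0.40, -0.25 and 0.30.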
